A study of Mus musculus with 4 samples.

Results

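The genes described here encode the enzymes that place and remove acetyl groups on histones and the corepressor scaffolds that carry the deacetylases, 41 genes of the 55401 in the count table, chosen by name: acetyltransferases with their cofactors (13 genes), histone deacetylases and sirtuins (17 genes) and subunits of the NCoR, SIN3 and CoREST corepressors (11 genes). The choice was made with earlier results of these data known. Their mRNA was measured by RNA-seq in mouse embryonic stem cells grown with LIF, CHIR99021 and PD0325901, in which both copies of the gene for the zinc finger transcription factor ZBTB21 end in an mAID-GFP degron tag and the auxin receptor OsTIR1 is encoded at Rosa26. The comparison was between 2 untreated libraries and 2 degron libraries, the latter from cells exposed to 1 µg/ml doxycycline for 24 h, followed by the auxin IAA (500 µM) for another 24 h. All 4 libraries carry the same tag and receptor in a clonal line. Doxycycline induces the receptor, whether the untreated cells had it too is not stated, and a library from cells given both agents with ZBTB21 still present was not analysed here, so an effect of the agents and an effect of ZBTB21 loss cannot be told apart.

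Histone acetyltransferases add acetyl groups to lysines in histone tails, using acetyl-CoA, and the marked nucleosomes are typical of active promoters and enhancers. Histone deacetylases take the group off again. The zinc-dependent enzymes of class I work mostly inside corepressor complexes, whereas the sirtuins use NAD and act in the nucleus, the cytoplasm or mitochondria. In embryonic stem cells the CoREST, SIN3 and NuRD complexes hold the class I deacetylases HDAC1 and HDAC2.

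The counts summed to between 8344408 and 10604451 per library. Zbtb21 mRNA was counted 652 and 525 times without treatment and 1188 and 1115 times after degron induction, but it cannot check the labels because the tag destroys the protein and not the mRNA. The 8 markers of embryonic stem cells summed to between 5447 and 5613 CPM (counts scaled to a fixed library size) in untreated and between 5105 and 5157 CPM in degron libraries. Single markers moved both ways within that sum. Tdgf1 had 876 and 846 CPM untreated and 485 CPM in both degron libraries. Klf2 had 360 and 389 CPM against 502 and 489 CPM. Of 8 fibroblast markers 2 (Lum and Dcn) had no count in any library, and the sums were between 23.8 and 24.4 CPM in the 4 libraries. That even sum held opposite shifts. Thy1 had 8.24 and 9.86 CPM untreated and 3.27 and 2.03 CPM in degron libraries, and Pdgfrb had 8.52 and 8.89 CPM against 13.3 and 15.4 CPM. The 7 primitive endoderm markers summed to between 10.3 and 10.5 CPM in untreated and to 16.1 CPM in both degron libraries, and the 5 neural markers, of which Neurog2 had no count, to between 94.0 and 108 CPM and between 75.0 and 85.8 CPM. The 6 trophoblast markers summed to between 136 and 141 CPM and between 151 and 152 CPM. The part of these shifts in the results was not tested, and in bulk RNA fewer cells of a type and less RNA per cell cannot be told apart.

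Most of the genes described here were called by edgeR but not by DESeq2, and most of the changes were small. Of the 40 genes that passed the low-count filter (Hdac9 did not), 18 were higher and 9 lower in degron cells (edgeR quasi-likelihood test, Benjamini-Hochberg adjusted p under 0.05 over all genes). That is 67.5% of them, against 43.8% of the 13916 genes tested, of which 22.2% were higher and 21.6% lower. Because earlier results of these data were known when the genes were chosen, these shares are given as values only. The median log2 fold change (written as log2 change) was 0.11, against 0.01 over all genes tested, with a range from -0.68 for Rcor2 to 0.79 for Crebbp. Only 5 of the 27 called genes changed by at least 0.5 on the log2 scale (Crebbp, Kat2b, Gps2, Rcor2 and Rcor3), or 12.5% of those tested, against 17.1% of all genes. The groups did not overlap for 33 of the 40 genes, and for 70.6% of all genes tested. The called genes were more abundant than most, with medians of 101 CPM (higher) and 168 CPM (lower) in untreated cells against 25.6 CPM over all genes tested, and the part of abundance in the counts of calls was not tested. By role, 12 of 13 acetyltransferase genes were called, 6 of 16 tested deacetylase genes and 9 of 11 corepressor genes, with median log2 changes of 0.16, 0.08 and 0.15. Without degron replicate 2, 12 were called higher and 4 lower, against 16.2% and 15.3% of all genes tested in that fit, and DESeq2, the tool of the study, called 10 higher and 4 lower against 11.1% and 11.4% of the genes to which it gave an adjusted p.

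**Figure D1:**
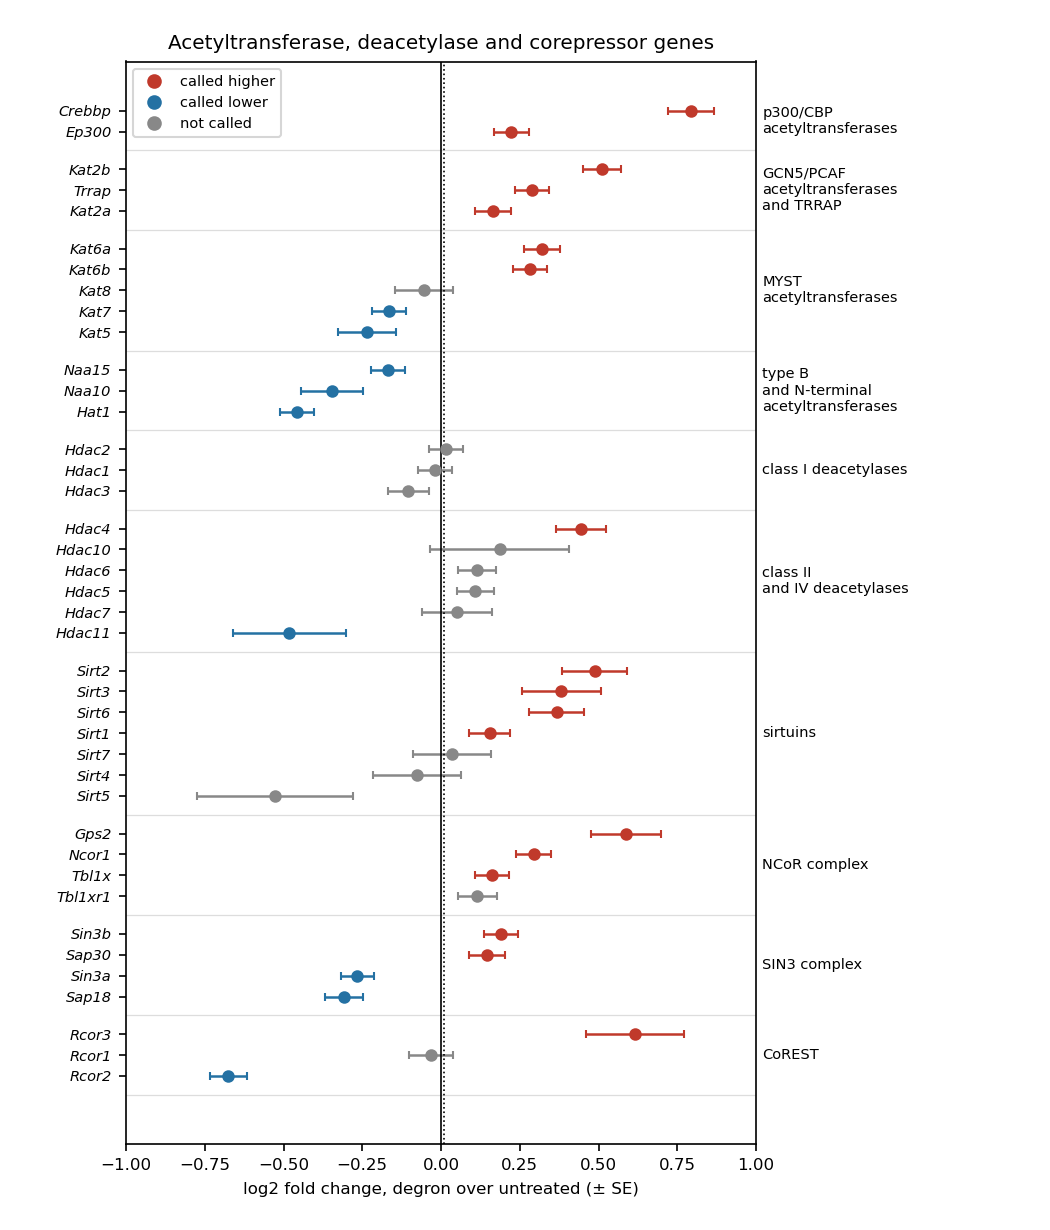
Log2 fold change (degron over untreated, horizontal axis) of the 40 tested genes, grouped by role, with bars of 1 SE from the edgeR fit; the dotted line is the median of all genes tested (0.01). Crebbp, at 0.79, lies farthest to the right and Rcor2, at -0.68, farthest to the left. The class I deacetylase genes Hdac1, Hdac2 and Hdac3 lie close to 0.

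The promoters of these genes were examined for short sequences, since several genes moved together. RefSeq promoters (GRCm38.p6, the 250 bases before the start) were found for 37 of the 41 genes, 49 promoters in all counting alternative starts, and had a median GC content of 61.2% against 52.4% over all 32851 promoters. The letters ACGTG, the core of the site bound by hypoxia-inducible factors, were present on either strand in 26.5% of these promoters and in 16.6% of all promoters, and in 4 of 11 promoters of genes that fell, 5 of 22 of genes that rose and 4 of 14 of genes that were not called. ACGTG holds the letters CG, of which these promoters had a median of 17 against 6 over all promoters. The part of CG content in these shares was not tested. The E-box CACGTG, a palindrome that holds ACGTG on both strands and is bound by MYC, USF and BHLHE40 among others, was searched after those matches had been seen. It was present in 8.16% of these promoters and 6.02% of all. By promoter, CACGTG was in 3 of 11 of genes that fell, 1 of 22 of genes that rose and 0 of 14 of genes that were not called. By gene, CACGTG was found for 3 of 9 genes that fell (Hat1, Kat5 and Rcor2), for 1 of 17 that rose (Sirt1) and for 0 of 10 that were not called. ACGTG was found for 4 of 9, 5 of 17 and 4 of 10 genes in the same order. The ATF4 site TGATGNAA was in 1 of the 49 promoters (3.45% of all promoters), and the letters TGACGTCA (CREB), TTTCGCGC (E2F) and AAGATGGCG (YY1) were in 0, against 1.55%, 0.256% and 0.606% of all. The 30 bases around each CACGTG are shown because the Rcor2 and Hat1 promoters, of the falls with the smallest p, hold it; capitals mark the match, and each is written 5′ to 3′ on the strand of its gene.
Rcor2 (chr19:7267352-7267381, plus strand): tgtgagctgcagCACGTGccccaggcggcg
Hat1 (chr2:71389067-71389096, plus strand): tgagggcatcctCACGTGcggtggctaggc
Kat5 (chr19:5610263-5610292, minus strand): cccggtgggcgtCACGTGacagactcggcg
Sirt1, first match (chr10:63339133-63339162, minus strand): gcggcgcccggcCACGTGacccggcgtgtt
Sirt1, second match (chr10:63339061-63339090, minus strand): ggaggggcgggtCACGTGacggggtttaaa
The matches of Rcor2 and Hat1 begin 30 and 181 bases before the RefSeq start and lie inside exons that GENCODE assigns to these genes. Those of Kat5 and Sirt1 begin 186, 115 and 43 bases before the start. A match is a stretch of letters and not a measured site, and a link to the level was not tested. Sirt1, which edgeR called higher, carries it too. The calls of Sirt1 and Kat5 were not made in 8 and 6 of 12 alternatives.

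Among the acetyltransferases 7 rose, 5 fell and Kat8 was not called. CREBBP (CBP) and EP300 (p300) are paired coactivators that acetylate histone tails at enhancers and promoters. Crebbp (ENSMUSG00000022521.10, mm10 chromosome 16, 4081328 to 4213997, minus strand) had 42.4 and 43.3 CPM without treatment and 76.3 and 72.01 CPM after degron induction. The groups did not overlap, and the rise of 1.73-fold, a log2 change of 0.79 ± 0.07 (SE, edgeR adjusted p = 2.47e-15), was the largest of the 40 tested genes. Ep300 had 160 and 149 CPM untreated and 183 and 178 CPM in degron cells, a rise of 0.22 ± 0.06 on the log2 scale (edgeR adjusted p = 5.65e-04). Per exonic kilobase Ep300 was 3.42 times as abundant as Crebbp in untreated cells and 2.31 times in degron cells.

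KAT2A (GCN5) and KAT2B (PCAF) are the alternative catalytic subunits of the SAGA and ATAC coactivators, and TRRAP is a large scaffold without catalytic activity that SAGA shares with the TIP60 complex. All 3 genes rose. Kat2b (chromosome 17, 53566861 to 53672720, plus strand) had 80.4 and 79.8 CPM without treatment and 117 and 111 CPM after degron induction, 1.42-fold higher (log2 change 0.51 ± 0.06, SE, edgeR adjusted p = 6.21e-11), with no overlap between groups. Trrap had 202 and 188 CPM against 243 and 234 CPM, a rise of 0.29 ± 0.05 on the log2 scale. Kat2a, the more abundant of the catalytic pair, had 123 and 128 CPM against 143 and 138 CPM, a rise of 0.16 ± 0.06. Neither gene had overlapping groups. The Kat2a call was lost without untreated replicate 1, without degron replicate 1 and without degron replicate 2, and DESeq2 did not make it (adjusted p = 0.187).

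The MYST family divided. KAT6A (MOZ) and KAT6B (MORF), close paralogs that acetylate histone H3, rose together. Kat6a (chromosome 8, 22859535 to 22943259, plus strand) had 127 and 119 CPM untreated and 155 and 152 CPM in degron cells, 1.25-fold higher (log2 change 0.32 ± 0.06, SE, edgeR adjusted p = 2.08e-06), and Kat6b, the more abundant per exonic length, had 347 and 334 CPM against 417 and 412 CPM, a rise of 0.28 ± 0.05 on the log2 scale. The groups did not overlap for either gene. KAT7 (HBO1), which acetylates histones near replication origins, and KAT5 (TIP60), the catalytic subunit of the NuA4-type complex, went the other way. Kat7 had 242 and 239 CPM untreated and 219 and 209.9 CPM in degron cells, and Kat5 had 36.4 and 36.2 CPM against 32.1 and 29.5 CPM. The degron libraries were the lower ones for both genes, with log2 changes of -0.17 ± 0.05 and -0.23 ± 0.09 (SE, edgeR adjusted p = 0.00845 and 0.0304). DESeq2 called neither (adjusted p = 0.0770 and 0.302), both calls were lost without degron replicate 2, that of Kat5 was also lost without either untreated library, and Kat5 shares 426 of its 3509 exonic bases with Rnaseh2c on the opposite strand, which makes its value uncertain. Kat8 (MOF), the acetyltransferase of the MSL and NSL complexes, had 33.6 and 33.1 CPM against 30.3 and 34.0 CPM, which overlapped, and a log2 change of -0.05 with a 95% interval from -0.24 to 0.13.

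Hat1 and both subunits of NatA fell. HAT1 acetylates newly made histone H4 before it is placed on DNA. The Hat1 promoter holds the CACGTG shown, as does that of Sirt1, which edgeR called higher but 8 of 12 alternatives did not. A link between the match and the level was not tested. Hat1 (ENSMUSG00000027018.11, chromosome 2, 71388958 to 71441622, plus strand) had 365 and 390 CPM without treatment and 271 and 279 CPM after degron induction, 1.37-fold lower (log2 change -0.46 ± 0.05, SE, edgeR adjusted p = 5.51e-11). Each degron library lay below each untreated one. NAA10 and NAA15 are the catalytic and the ribosome-anchoring subunit of NatA, which acetylates the N-termini of proteins as they are made and is not mainly a histone enzyme. Naa10 (X chromosome, 73916873 to 73921944, minus strand) had 31.6 and 36.8 CPM untreated and 28.5 and 24.96 CPM in degron cells, a log2 change of -0.35 ± 0.10 (SE, edgeR adjusted p = 0.00284), and Naa15 had 236 and 245.5 CPM against 223 and 205 CPM, a log2 change of -0.17 ± 0.05. For both subunits the degron libraries were lower than the untreated ones. DESeq2 called neither NatA subunit (adjusted p = 0.127 and 0.0882), both calls were lost without degron replicate 2, and that of Naa10 also without untreated replicate 2. Naa10 has a near copy, Naa11, and shares 480 of 4132 exonic bases with Arhgap4 on the same strand, and reads there can be lost or shared.

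The class I deacetylases supply most of the catalytic activity of the SIN3, NuRD, CoREST and NCoR complexes. Of this class the 41 genes held only Hdac1, Hdac2 and Hdac3. These were not called (0 of 3 in either direction by edgeR or DESeq2, and 0 at an unadjusted p under 0.05). Hdac1 was the most abundant of the 41 genes per exonic length, at 464 and 474 TPM (counts per exonic base, scaled to a fixed total) in the untreated libraries. It had 475 and 507 CPM untreated and 478 and 492 CPM in degron cells, and its log2 change of -0.02 had a 95% interval from -0.13 to 0.09. Hdac2 had 216 and 222 CPM against 222 and 221 CPM (0.02, interval -0.09 to 0.12). For both genes the groups overlapped. Hdac3 (chromosome 18, 37935844 to 37955016, minus strand), the catalytic partner of NCoR, had 79.8 and 80.2 CPM untreated and 70.4 and 78.8 CPM in degron cells, a log2 change of -0.10 ± 0.07 (SE, edgeR adjusted p = 0.204). Its groups did not overlap, but the degron libraries differed from each other by more than the higher of them differed from the untreated ones.

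Among the deacetylases of classes II and IV, Hdac4 rose and Hdac11 fell. HDAC4 belongs to class IIa, whose members shuttle between nucleus and cytoplasm and bind MEF2 factors. Hdac4 (chromosome 1, 91928779 to 92195699, minus strand) had 37.1 and 38.1 CPM without treatment and 52.7 and 49.4 CPM after degron induction, 1.36-fold higher with no overlap (log2 change 0.44 ± 0.08, SE, edgeR adjusted p = 3.79e-06). It shares 3536 of 15813 exonic bases with the noncoding gene Gm26720 on the opposite strand, and its value is uncertain because strand use in counting is not given in the sources used here. HDAC11 is the sole class IV enzyme and also removes long fatty acyl groups. Hdac11 (chromosome 6, 91156665 to 91174692, plus strand) had 10.4 and 9.11 CPM untreated and 6.87 and 7.17 CPM in degron cells, a log2 change of -0.48 ± 0.18 (SE, edgeR adjusted p = 0.0244). That call rested on between 60 and 110 counts per library. It was lost without untreated replicate 1 and without either degron library, DESeq2 did not make it (adjusted p = 0.282), and the gene overlaps Gm44002 on the opposite strand by 594 of 3849 exonic bases. The other class II genes were not called. Hdac6, the tubulin deacetylase, had 105 and 103.5 CPM against 118 and 107.5 CPM (log2 change 0.11), which edgeR with library sizes alone called higher. Hdac5 had 98.0 and 104 CPM against 111 and 107 CPM (0.11), and Hdac7 24.2 and 21.3 CPM against 24.8 and 22.5 CPM (0.05). Hdac10, a polyamine deacetylase, was measured least precisely, at 4.73 and 6.61 CPM against 5.24 and 7.64 CPM (0.19 ± 0.22, SE), and the groups overlapped for it and for Hdac7. Hdac9 had 12 and 10 counts in untreated and 6 and 2 counts in degron libraries and was too low to be tested.

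Of the 7 sirtuins 4 were called higher by edgeR and 1 of these, Sirt2, by DESeq2. None was called lower by either tool, and 1, Sirt5, had a negative value with an unadjusted p under 0.05 in edgeR. SIRT2, mostly cytoplasmic, removes acetyl groups from tubulin and from histone H4. Sirt2 (chromosome 7, 28766735 to 28788661, plus strand) had 21.7 and 23.7 CPM without treatment and 30.4 and 33.2 CPM after degron induction, 1.40-fold higher (log2 change 0.49 ± 0.10, SE, edgeR adjusted p = 5.86e-05). SIRT6 is a chromatin-bound deacetylase of histone H3. Sirt6 (chromosome 10, 81621785 to 81627797, minus strand) had 35.4 and 31.2 CPM against 43.5 and 42.6 CPM, a rise of 0.37 ± 0.09 on the log2 scale (SE, edgeR adjusted p = 3.18e-04) that DESeq2 did not call (adjusted p = 0.0600). SIRT3 is the main deacetylase of the mitochondrial matrix, and Sirt3 (chromosome 7, 140863666 to 140882309, minus strand) had 16.7 and 15.4 CPM against 19.4 and 22.6 CPM, a log2 change of 0.38 ± 0.12 (SE, edgeR adjusted p = 0.00887). The groups did not overlap for these 3 genes. The Sirt3 call was lost without degron replicate 2 and absent from DESeq2 (adjusted p = 0.193), and the gene shares 418 exonic bases with Ric8a and 342 with Psmd13 on the opposite strand. Sirt1, a nuclear sirtuin that also deacetylates transcription factors, had 72.2 and 79.9 CPM against 86.3 and 82.6 CPM. It was called higher (0.16 ± 0.07, edgeR adjusted p = 0.0460), but 8 of 12 alternatives did not call it. The mitochondrial Sirt4 had 15.4 and 13.4 CPM against 14.2 and 13.3 CPM (-0.08) and the nucleolar Sirt7 had 17.9 and 18.5 CPM against 18.6 and 18.8 CPM (0.03), and neither was called. Sirt5, the mitochondrial desuccinylase, had 4.73 and 5.85 CPM untreated and 3.71 and 3.58 CPM in degron cells, a log2 change of -0.53 ± 0.25 that was not called (edgeR adjusted p = 0.0765) except without untreated replicate 1.

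**Figure D2:**
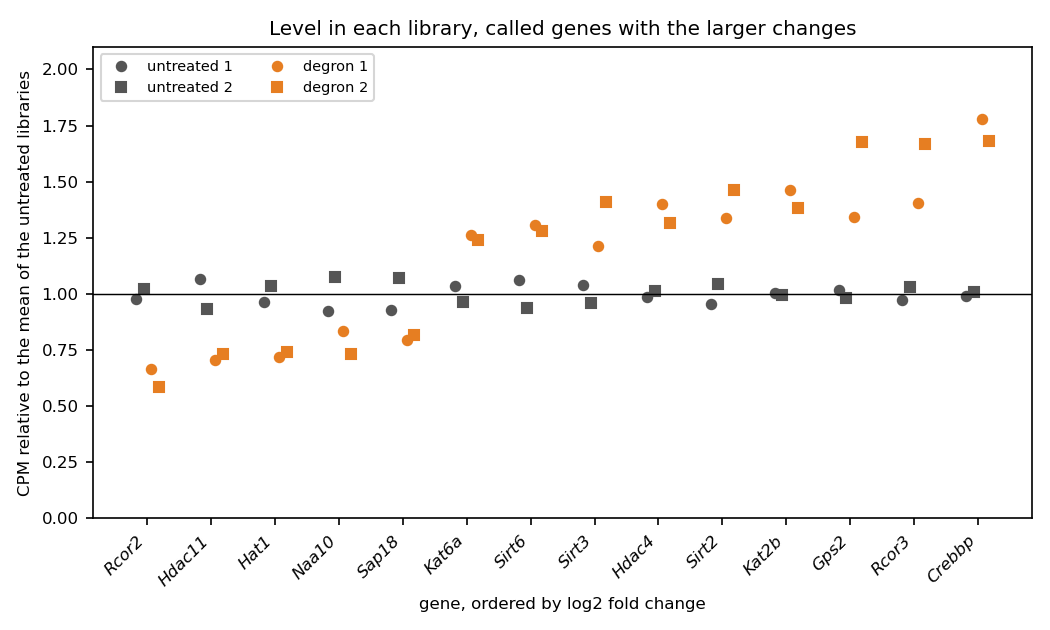
CPM of the 14 called genes with a log2 change of at least 0.3 in size, in each of the 4 libraries, relative to the mean of the untreated libraries (vertical axis, linear from 0; circles replicate 1, squares replicate 2). For each gene both degron libraries lie on the same side of both untreated libraries, and the degron libraries differ most from each other for Gps2 (26.5 and 33.1 CPM) and Rcor3 (12.9 and 15.3 CPM).

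In the NCoR complex, which joins HDAC3 to nuclear receptors, 3 of 4 genes rose and the fourth had a positive value. GPS2 is a small subunit that binds both the NCoR scaffold and TBL1. Gps2 (ENSMUSG00000023170.14, chromosome 11, 69913888 to 69916591, plus strand) had 20.1 and 19.4 CPM without treatment and 26.5 and 33.1 CPM after degron induction, 1.502-fold higher without overlap (log2 change 0.59 ± 0.11, SE, edgeR adjusted p = 8.46e-06). Ncor1, the scaffold itself, rose from 402 and 381 CPM to 508 and 453 CPM, a log2 change of 0.29 ± 0.06 (SE, edgeR adjusted p = 9.25e-06). The WD40 subunit gene Tbl1x had 159 and 159.8 CPM against 178 CPM in both degron libraries, a rise of 0.16 ± 0.05 on the log2 scale. This was a call that DESeq2 did not make (adjusted p = 0.144) and that was lost without either degron library, and its paralog Tbl1xr1, at 84.5 and 93.6 CPM against 96.9 and 95.5 CPM, had a log2 change of 0.12 ± 0.06 (edgeR adjusted p = 0.128). Hdac3 had a negative value, given above, and was not called.

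The SIN3 genes moved in both directions. SIN3A and SIN3B are alternative scaffolds for HDAC1 and HDAC2, and SAP30 and SAP18 are accessory subunits. Sin3a (chromosome 9, 57072040 to 57128366, plus strand) had 239 and 234 CPM without treatment and 199.5 and 194 CPM after degron induction, a log2 change of -0.27 ± 0.05 (SE, edgeR adjusted p = 2.82e-05). Sin3b had 177 and 184 CPM against 203 and 210 CPM, 0.19 ± 0.05 on the log2 scale (SE, edgeR adjusted p = 0.00275). Neither gene had overlapping groups, and they lay on opposite sides of 0. Sap18 (chromosome 14, 57798180 to 57806638, plus strand) had 121 and 140 CPM untreated and 104 and 106.5 CPM in degron cells, a log2 change of -0.31 ± 0.06 (SE, edgeR adjusted p = 1.60e-05). It has a near copy, Sap18b, and overlaps Ska3 on the opposite strand by 78 exonic bases, so its value is uncertain. Sap30, the third most abundant of the 41 genes at 363 and 370 TPM, had 127 and 135 CPM against 144 and 146 CPM, a rise of 0.15 ± 0.06 on the log2 scale. Of these 4 calls those of Sin3b and Sap30 were not made by DESeq2 (adjusted p = 0.0628 and 0.254) and were lost without degron replicate 2, and that of Sap30 was also lost without untreated replicate 1 and without degron replicate 1.

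CoREST links HDAC1 and HDAC2 to the histone demethylase LSD1, and its scaffold has 3 forms encoded by separate genes. Rcor2, at 175 and 176 TPM the most abundant of the 3 in untreated cells, showed the largest fall of the 40 tested genes. Its promoter holds the CACGTG shown, which the Sirt1 promoter holds too, and a link to the fall was not tested. Rcor2 (ENSMUSG00000024968.14, chromosome 19, 7267325 to 7275225, plus strand) had 164 and 172 CPM without treatment and 112 and 98.4 CPM after degron induction, 1.597-fold lower (log2 change -0.68 ± 0.06, SE, edgeR adjusted p = 2.53e-16). Rcor3 (chromosome 1, 192098546 to 192138062, minus strand), the least abundant at 2.20 and 2.23 TPM, had 8.90 and 9.43 CPM against 12.9 and 15.3 CPM, a log2 change of 0.62 ± 0.16 (SE, edgeR adjusted p = 7.19e-04). The groups did not overlap for either gene, but DESeq2 did not call Rcor3 (adjusted p = 0.0764), which also overlaps 3 noncoding genes on the opposite strand. Rcor1 had 66.5 and 61.9 CPM against 64.0 and 61.6 CPM and was not called (-0.03, 95% interval -0.17 to 0.10).

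Because several of these genes are alternative forms of one subunit, the ratio of 9 paralog pairs was taken within each library, which does not depend on the scaling between libraries. The Ep300 to Crebbp ratio per exonic kilobase was 1.84 and 1.71 on the log2 scale in untreated and 1.19 and 1.23 in degron libraries. The Rcor1 to Rcor2 ratio was -2.15 and -2.33 against -1.65 and -1.52. For Sin3a to Sin3b it was 0.88 and 0.79 against 0.43 and 0.34, a linear ratio of 1.79 untreated and 1.30 in degron cells. The linear ratio of Kat2a to Kat2b was 2.19 untreated and 1.72 in degron cells, that of Hdac4 to Hdac5 was 0.206 and 0.260, and that of Sirt6 to Sirt7 was 3.37 and 4.27. In each of these 6 pairs the groups did not overlap and the mean ratios differed by more than the SD between replicates. The share of such pairs among all genes was not computed. For single genes the groups did not overlap in 70.6% of those tested. With 2 libraries against 2 an exact two-sided permutation test cannot go below p = 0.3333, so the ratios are given as values only. Hdac1 to Hdac2 (2.91 and 2.84) and Tbl1x to Tbl1xr1 (2.26 and 2.34) overlapped between groups. Kat6a to Kat6b differed by only 0.04 on the log2 scale, yet also without overlap and by more than the SDs (0.030 untreated and 0.005 degron).

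**Figure D3:**
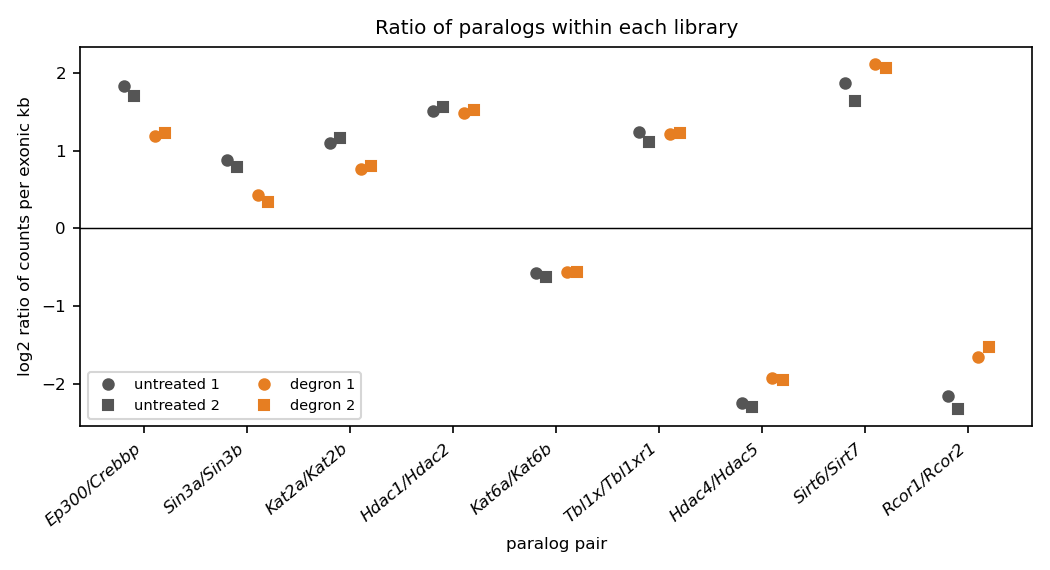
Log2 ratio of counts per exonic kilobase for 9 paralog pairs in each library (vertical axis; untreated grey, degron orange; circles replicate 1, squares replicate 2). The degron points lie clear of the untreated points for Ep300/Crebbp and Rcor1/Rcor2, which differed by -0.57 and 0.65 on the log2 scale, and on top of them for Hdac1/Hdac2.

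The partners of these enzymes were counted from lists of 107 other genes, of which 106 were in the table and 105 passed the filter. Of these 27 were higher and 21 lower, 45.7% against the 43.8% of all genes. In the SAGA and ATAC list 7 of 18 genes rose (4 by DESeq2) and 0 fell (0 by DESeq2, and 2 had an unadjusted p under 0.05 in edgeR), led by Supt20 (0.53), Sgf29 (0.61) and Atxn7 (0.64, log2 changes). In the TIP60 list 6 of 14 fell and 2 rose (4 and 1 by DESeq2). Ruvbl1 and Ruvbl2, the paired ATPases that TIP60 shares with chromatin remodelers, had log2 changes of -0.59 and -0.50, and Actl6a one of -0.31, whereas Epc1 and Epc2 rose (0.56 and 0.28). In the MOZ, HBO1, MSL and NSL list 4 of 15 rose, with Brpf3 (0.45), Kansl1 (0.41) and Jade1 (0.24) first by p, and 2 fell (3 and 0 by DESeq2).

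Rbbp7, a histone chaperone of the SIN3 and NuRD complexes, fell from 402 and 400 CPM to 309 and 304 CPM (log2 change -0.39), and Sap130 and Phf12 rose (0.28 and 0.26), within a list of 13 SIN3 and MiDAC genes of which 3 rose and 2 fell (3 and 2 by DESeq2). In the NuRD list 1 of 9 rose, Mta3 (0.31), and 3 fell, among them Cdk2ap1 (-0.21) and the remodeler gene Chd4 (-0.14), whereas DESeq2 called 1 higher and 0 lower. The demethylase gene Kdm1a (LSD1), the partner of the CoREST scaffolds, fell from 367 CPM in both untreated libraries to 291 and 290 CPM (log2 change -0.34), in a list of 14 corepressor genes of which 4 rose, with Ctbp1 (0.33) and Tle3 (0.23) first by p, and 2 fell (2 and 1 by DESeq2). Of 9 readers of acetyl-lysine 3 rose, among them Brd9 (log2 change 0.32) and Brd1 (0.15), and 1 fell (1 and 0 by DESeq2). In the list of enzymes that supply acetyl-CoA and NAD 5 of 13 fell and 3 rose (4 and 1 by DESeq2). Nampt, the rate-limiting enzyme of NAD salvage, fell from 209 and 197 CPM to 156 CPM in both degron libraries (log2 change -0.38), Nmnat2 had one of -0.51, and Nnmt, which methylates nicotinamide, rose from 3.79 and 4.77 CPM to 11.8 and 12.8 CPM (1.53). Without degron replicate 2, fewer partner genes were called in each direction, as was the case over all genes.

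**Figure D4:**
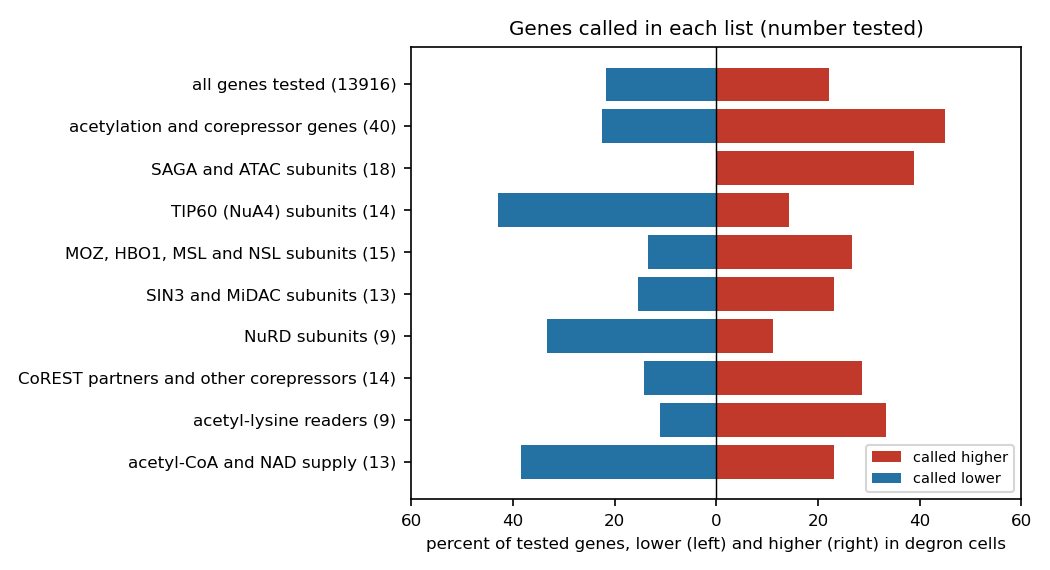
Percent of tested genes called lower (bars to the left) and higher (bars to the right) in degron cells, for all genes, for the 40 genes of acetylation and corepression and for each list of partner genes, with the number tested in parentheses. The SAGA and ATAC list has no bar to the left (7 of 18 higher), and the TIP60 list has its longer bar there (6 of 14 lower).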

How the data were processed

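Poly(A) libraries, by the labels (the study's text says total RNA), were made from 2 untreated and 2 degron samples of mouse embryonic stem cells. Nothing states that replicates came from separate cultures, and the p-values then reflect a spread that may be technical. The deposited table holds raw counts for each gene. As stated in the submitters' processing notes and in the study, the authors trimmed reads with cutadapt 2.6, mapped them to mm10 with STAR 2.7.6a, removed PCR duplicates and counted primary alignments with featureCounts 1.6.3 on GENCODE release 25. Strand use in counting is not given in the sources used here; genes that overlap another on the opposite strand are uncertain.

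Columns were matched to samples by condition and replicate number (0 other sample columns). GENCODE release 21 (GRCm38) held 55141 of the 55401 gene IDs, versions ignored, and gave symbols, coordinates and exonic lengths. The edgeR 4.0.16 quasi-likelihood test (R 4.3.3) was run on the counts after filterByExpr and TMM scaling, with group as the only term, p-values adjusted over 13916 genes by Benjamini-Hochberg and called under 0.05. CPM use TMM-scaled library sizes, except for marker sums, which use library totals. The SE is the size of the log2 fold change divided by the square root of F, and 95% intervals are normal approximations. TPM use exonic lengths. The genes and lists were chosen with earlier results of these data known. In full are given all called genes with a log2 fold change of at least 0.3 in size and the gene with the smallest p in each role; for the other genes of the group the library values are given beside their log2 fold change. Of partner genes the called ones with the 3 smallest p in each list are named, except 1 that is not reported here, and Epc1 and Epc2 were added after their values were seen.

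Replicates of a group differed by more than sampling noise (chi-square per gene of 1.64 and 1.34, where about 1 is expected, and 10.2 to 10.7 between groups), and 0 pairs were counted as 1 library. The test was first tried on simulated data. Alternatives were DESeq2 1.42.0, limma-voom (limma 3.58.1), RLE, upper quartile and unscaled library sizes in edgeR, the low-count filter removed or raised to a mean of 1 CPM in each group, the replicate block and each library left out. Promoter sequences are those of RefSeq (GRCm38.p6), searched on both strands.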

Additional observations from a re-analysis of the deposited data

How the results depend on the processing

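Of the 27 calls among the 40 tested genes, 10 of higher level (Ep300, Crebbp, Kat2b, Trrap, Kat6a, Kat6b, Hdac4, Sirt2, Ncor1 and Gps2) and 4 of lower level (Hat1, Sin3a, Sap18 and Rcor2) were made under all 12 alternatives, and no call turned its direction under any of them. DESeq2 called 10 of these genes higher and 4 lower, 14 in all and all shared with edgeR. It called 1445 genes higher and 1491 lower over the whole table and 16 and 11 partner genes. With a library left out, between 12 and 19 genes of histone acetylation were called higher and between 4 and 8 lower, and between 13 and 21 partner genes were called lower, the lowest counts being those without degron replicate 2, where 16 of the 27 calls remained. Over the whole table, each of these fits called fewer genes in each direction than the fit with all libraries. A lone library in a group was taken to vary as the remaining group does. Between libraries of the same replicate number, deviations from the group means had a correlation of 0.044. With 2 libraries per group these deviations mirror each other, so this 1 value cannot settle whether the numbers pair the libraries. A fit with the replicate block called the same 27 genes. In the whole table that fit called 3369 genes higher and 3276 lower, against 3087 and 3006 without the block. With library sizes alone the median of all tested genes moved from 0.01 to 0.04 on the log2 scale. Hdac10, Hdac11, Sirt5 and Rcor3 had at most 128 counts in a library, and the part of depth in their calls was not tested.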
